A study of Mus musculus with 8 samples.

Results

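The genes of the translation initiation factors (*Eif*) and translation elongation factors (*Eef*) were followed in single endocardium cells of the mouse heart at E8.5, with and without the transcription factor gene *Sox17*. All genes on the array whose symbol begins with Eif or Eef and a digit were taken, which gave 64 genes of 35526, measured by 94 probes. A gene with several probes, which held for 22 of the 64, is given by its brightest probe over all arrays, and all 64 symbols matched a mouse RefSeq gene.

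Endocardium is the endothelial layer that lines the heart tube. Each of 8 one-colour arrays carried the amplified cDNA of 1 cell, from embryos at 9 somites. All 8 cells carried the *Sox17* flox/flox genotype. The 4 control cells (WT) had *Mesp1*+/+ and the 4 knockout cells (KO) had *Mesp1* Cre/+, in which Cre made from the *Mesp1* locus acts in early mesoderm and what descends from it. Cells were freed with trypsin, picked one by one with a capillary and typed by PCR of marker genes in their cDNA. The tissue is called heart tube in the labels and heart ventricle in the study's methods. Which embryo a cell came from is not stated, and each genotype was therefore treated as 1 sample. No test between genotypes was made, and their differences are given beside the SD between cells, pooled within genotypes. All 8 arrays lay on 1 slide, with WT cells in column 1 and KO cells in column 2, WT and KO cells of the same number in the same row, so that slide position and genotype cannot be told apart.

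*Sox17* itself was not well above background on any of the 8 arrays, and its probe does not check the genotype labels. Probes well above background numbered 11370 (WT 1) to 18175 (WT 4) of 55295. Of 10 endocardial or endothelial markers, 7 to 10 were well above background in a WT cell and 6 to 9 in a KO cell. *Emcn* was 16.8-fold higher in the KO mean, a difference of 4.07 on the log2 scale with an SD of 2.58. It was over the floor in WT 4 and in KO 1, KO 2 and KO 3. The other differences were 1.34 (*Tie1*), 0.84 (*Sox7*), 0.53 (*Sox18*), 0.16 (*Kdr*), -0.27 (*Npr3*), -0.48 (*Pecam1*), -0.96 (*Cdh5*), -1.58 (*Nfatc1*) and -2.16 (*Tek*). Cardiomyocyte markers, 9 in all, had a summed scaled intensity of 318 to 34056 in WT and 1001 to 48719 in KO cells. *Actc1* was over the floor in all 8 cells and 6.38-fold higher in the KO mean. Its difference on the log2 scale was 2.67 with an SD of 2.79. *Myh7*, *Myl4*, *Myl7* and *Tnnt2* were over the floor in some cells of each genotype, with differences of -1.40, -0.33, -0.15 and 0.47. *Actn2* was over it in KO 4 alone and *Nkx2-5* in KO 2 alone, while *Nkx2-5* was well above background in 3 WT and 3 KO cells. *Tbx5* and *Myh6* were under the floor in every cell. *Acta2* and *Tagln*, 2 of 3 markers of smooth muscle, were well above background in every cell. Even so, *Acta2* was at the floor in 2 WT and 3 KO cells and *Tagln* in 2 WT and 2 KO cells. The sums over the 3 markers were 66.2 to 14376 in WT and 57.3 to 7724 in KO cells, with *Cnn1* at the floor throughout. No blood or endoderm marker, 5 of each, passed the floor in any cell. The part of these markers in the differences below was not tested.

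Translation begins when the small ribosomal subunit, with eIF1, eIF3, eIF5 and the eIF2 complex that brings the initiator tRNA, is placed on an mRNA whose cap is held by eIF4E on the scaffold eIF4G. The guanine nucleotide exchange factor eIF2B recharges eIF2, kinases that phosphorylate eIF2 alpha slow this step, and 4E-BP proteins hold back eIF4E. Elongation is then driven by eEF1A, which delivers aminoacyl-tRNA, by its exchange factor eEF1B, and by eEF2, which moves the ribosome along. These factors are needed in all cells, and several of their mRNAs are among the most abundant of a growing embryo.

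The measurement of a gene depends on where its probe lies, and the sequences below are shown because they carry the results on *Eif2s2*, *Eif1* and *Eif3k*. Each is a stretch of 30 of the probe's 60 bases as listed in the array files, 5′ to 3′. Capitals mark AATAAA, the letters of the polyadenylation signal hexamer, wherever they occur in the stretch.
Eif2s2, probe from base 2446: tataactgcgtgAATAAAgcaaggatcagt
Eif2s2, probe from base 1406: gatgggggtaaggaggtactttttaaaatc
Eif1, probe from base 282: gctgatgattacAATAAAaagaaactagta
Eif1, probe from base 1115: gtgccatgtgaaggaacaagctggtctttt
Eif3k, probe from base 787: ccagtgtgcgttAATAAAgatttgttcact
Eif3k, probe from base 717: ttcatctgcagccaggaagagagcattaag
Positions count from the start of the transcript as the array annotation gives it. On mm9, the *Eif2s2* probes lie on the minus strand at chr2:154697153-154697212 (base 2446) and chr2:154698193-154698252 (base 1406). The *Eif3k* probes lie on the minus strand at chr7:29756392-29756451 (base 787) and chr7:29757555-29757614 (base 717). The *Eif1* probe from base 1115 lies on the plus strand at chr11:100183303-100183362. The other *Eif1* probe is placed by the array annotation at chr1:36658786-36658845, on another chromosome than *Eif1*. The annotation of exons and UTRs was not used here. AATAAA on the strand of the probe was found in 8 of the 64 probes used (12.5%) and in 10.05% of all 55295 probes, and on the opposite strand, read as TTTATT, in 6.25% and 3.74%. A match of these letters is a description and not a mapped site. In *Eif1* the match lies in the probe from base 282, before the probe from base 1115, and is not taken as a signal.

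Values are given as log2 of the scaled intensity, in which arrays were brought to a common level and values under 50 were set to that floor, 5.64 on the log2 scale. Values of different genes come from different probes and are not compared with each other. Of the 64 genes, 58 were well above background in at least 1 cell, against 20270 of all 35526 genes. In all 8 cells 26 were (40.6%), against 6236 of all genes (17.6%). The 6 genes that were not well above background in any cell were *Eef1a2*, *Eif2ak1*, *Eif2ak2*, *Eif2s3y*, *Eif4e1b* and *Eif4e3*. Detection differed between the arrays. The *Eif* and *Eef* genes detected numbered 32, 48, 47 and 53 in WT 1 to 4 and 40, 41, 46 and 46 in KO 1 to 4. The lowest and the highest were WT 1 and WT 4, which also had the fewest and the most probes above background, and the genotypes overlapped. Between these arrays the orders parted, as KO 3 had 46 genes with 16853 probes and WT 3 had 47 with 14293. Both counts rest on the same call, and their relation was not tested. In WT 1, 36 of the 64 genes were at the floor, against 15 to 28 in the other cells.

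**Figure D1:**
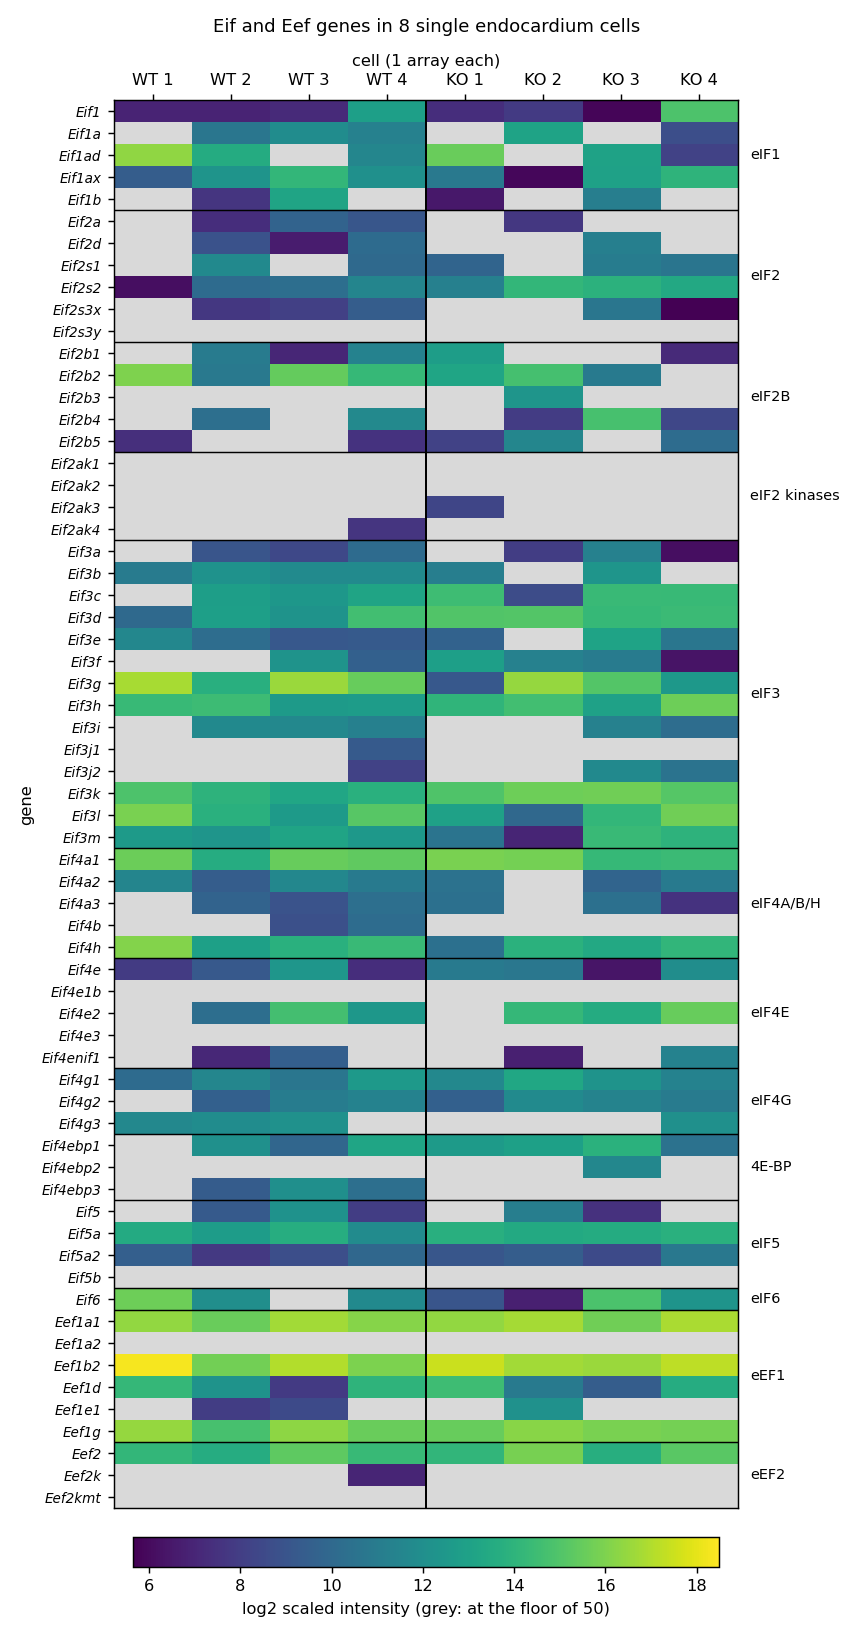
Log2 scaled intensity of the 64 *Eif* and *Eef* genes (rows, by factor) in the 4 WT and 4 KO cells (columns), with values at the floor of 50 in grey. The elongation factors *Eef1a1*, *Eef1b2*, *Eef1g* and *Eef2* and the eIF3 subunit *Eif3k* are bright in all 8 cells, while the eIF2 kinases are at the floor in nearly all, and WT 1 has the most grey fields, 36.

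Between genotypes, *Eif2s2* and *Eif2b5*, 2 of the 64 genes, were at least 5-fold higher in the KO mean (3.12%). So were 1.84% of all genes and 3.23% of those detected (well above background) in 1 cell or more. *Eif2b2*, *Eif3b*, *Eif3g*, *Eif4g3* and *Eif4ebp3*, 5 of the 64, were at least 5-fold lower (7.81%), where 1.86% of all genes were, and 3.27% of those detected in 1 cell or more. Of the 26 *Eif* and *Eef* genes detected in all 8 cells, 1 was at least 5-fold higher (3.85%) and 2 at least 5-fold lower (7.69%). Over all genes detected in all 8 cells these shares were 2.41% and 1.86%. Without WT 1, the array with the fewest probes above background, 2 of the 64 were higher and 9 lower. Leaving out WT 4 gave 7 higher, leaving out WT 2, WT 3, KO 1 or KO 4 gave 4 higher, and leaving out KO 4 gave 3 lower. The median difference, KO minus WT on the log2 scale, was 0 over the 64 genes and 0 over all genes. The KO cells all lay above the WT cells in 1 gene, *Eif3k*, where 0.645% of all genes did, 1.13% of those detected in 1 cell or more and 3.06% of those detected in all 8. In no *Eif* or *Eef* gene did all KO cells lie below, where 0.144% of all genes did. Without WT 4 there were 3 genes without overlap, and 2 without WT 1, KO 1, KO 2 or KO 3. Leaving out a cell can only add genes without overlap, by construction. For all counts with a cell left out, shares over all genes are not given, and the shares above do not match them.

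**Figure D2:**
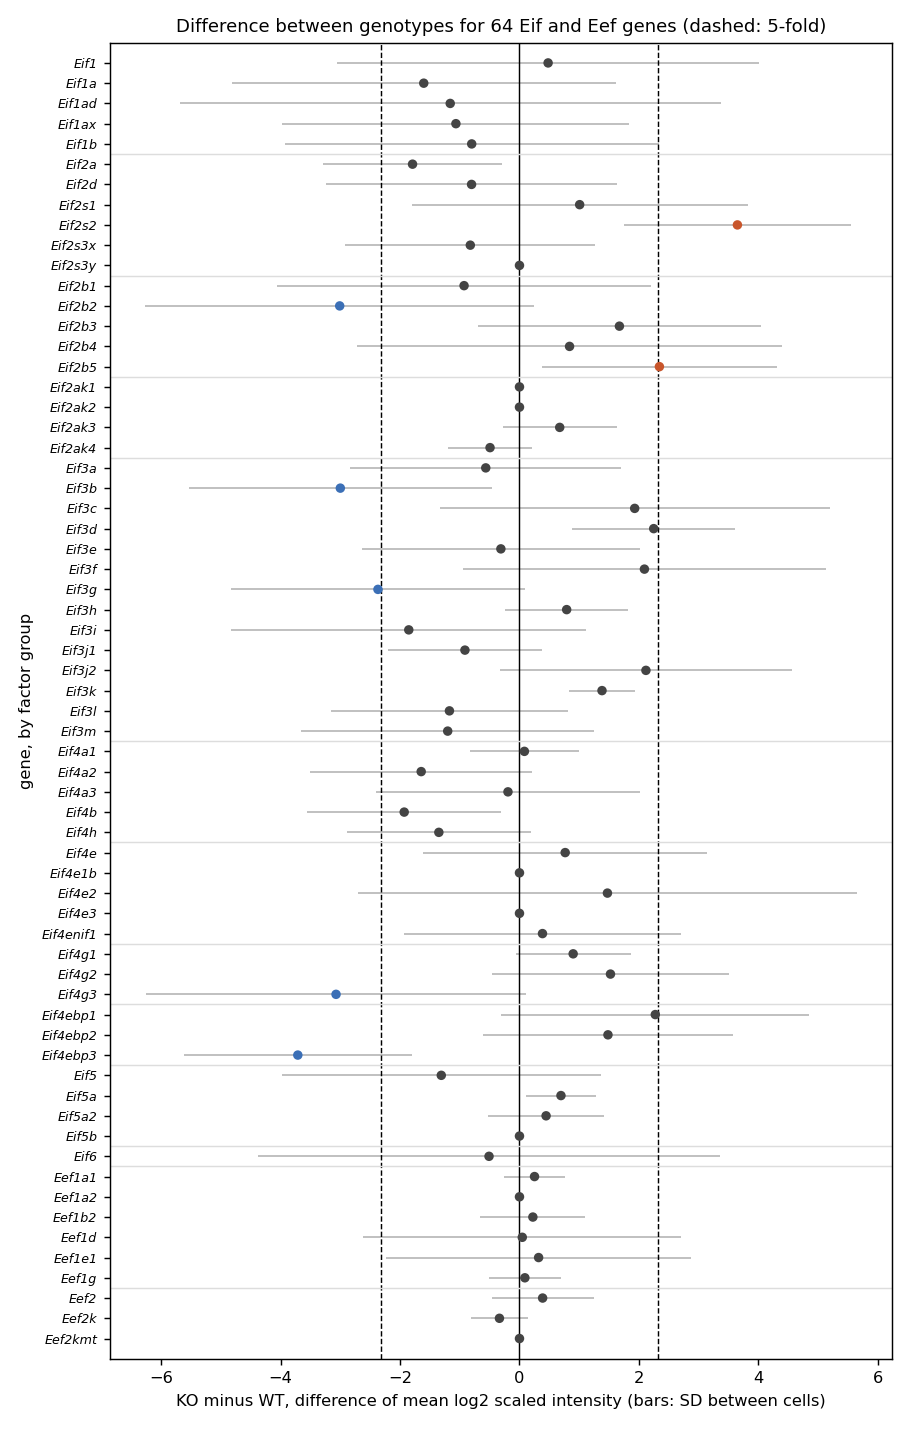
KO minus WT difference of mean log2 scaled intensity for the 64 genes (points), with the SD between cells (bars) and dashed lines at 5-fold. The bars of most genes cross 0, *Eif2s2* lies farthest to the right at 3.65 and *Eif4ebp3* farthest to the left at -3.71, and a point at 0 without a bar is a gene at the floor in all 8 cells.

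The factor eIF1 takes part in the choice of the start codon. Of the 5 genes grouped with it by symbol alone, *Eif1ad* among them, none was 5-fold apart. Their differences ran from -1.60 (*Eif1a*) to 0.48 (*Eif1*). *Eif1* was 6.94, 6.92, 7.19 and 12.90 in WT 1 to 4 and 7.35, 7.81, 5.81 and 14.90 in KO 1 to 4. A single cell of each genotype, WT 4 and KO 4, stood high, the difference was 1.95 without WT 4 and -1.50 without KO 4, and the SD between cells was 3.54, behind only *Eif6* among the 26 genes well above background in all cells. The probe from base 282 gave another order, with 13.00, 11.14, 8.80 and 9.26 in WT cells and 12.64, 12.84, 12.01 and 12.63 in KO cells, a difference of 1.98 with an SD of 1.38. WT 4 was high by the first probe and low by the second, and KO 4 was high by both. Over the 8 cells the probes had an r of -0.12.

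The eIF2 complex is made of an alpha (*Eif2s1*), a beta (*Eif2s2*) and a gamma subunit (*Eif2s3x*, and *Eif2s3y* on the Y chromosome). *Eif2s2* had the highest difference of the 64 genes. It was 6.14, 10.15, 10.29 and 11.51 in WT 1 to 4 and 11.26, 14.17, 13.88 and 13.39 in KO 1 to 4. The KO mean was 12.5-fold higher, a difference of 3.65 with an SD between cells of 1.90, and the genotypes overlapped in that WT 4 lay above KO 1. Without WT 1 the difference was 2.52, and without WT 4 and without KO 1 it was 4.31 and 4.29. *Eif2s2* is also on a gene list that the study drew from these same cells, so its place there is not independent of these values.

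The second *Eif2s2* probe, from base 2446, which holds the AATAAA shown above and was also well above background in all 8 cells, did not show this difference. It gave 8.64, 9.00, 5.64 and 10.10 in WT 1 to 4 and 5.64, 5.64, 6.27 and 13.49 in KO 1 to 4. KO 4 alone was high, and KO 1 to 3 were at or near the floor. The difference was -0.59 with an SD of 3.03, and the r between the *Eif2s2* probes over 8 cells was -0.03. With the mean of both probes the difference was 1.53, under 5-fold.

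*Eif2s1* was 5.64, 11.75, 5.64 and 10.05 in WT 1 to 4 and 9.80, 5.64, 11.03 and 10.64 in KO 1 to 4, a difference of 1.01 with an SD of 2.81. It was at the floor in 2 WT cells and 1 KO cell, and the genotypes overlapped. *Eif2s3x* was 5.64, 7.73, 8.09 and 9.45 in WT cells and 5.64, 5.64, 10.67 and 5.66 in KO cells, with KO 3 the highest of the 8 and the other KO cells at or beside the floor. Its difference was -0.82 with an SD of 2.10. *Eif2s3y* was not well above background in any cell, and neither were the Y-linked *Ddx3y*, *Kdm5d* and *Uty* nor *Xist*, the RNA that coats the inactive X chromosome. The 3 subunit genes detected thus had differences of both signs. *Eif2s1* and *Eif2s3x* had cells at the floor, and *Eif2s2*, by the probe used, had none. *Eif2a* and *Eif2d*, which encode factors that can bring initiator tRNA outside the eIF2 complex, differed by -1.79 and -0.80.

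The 5 genes of eIF2B held 1 gene of each direction past 5-fold. *Eif2b2*, the beta subunit, was 16.00, 10.83, 15.44 and 14.28 in WT 1 to 4 and 13.22, 14.72, 10.93 and 5.64 in KO 1 to 4. It was 8.06-fold lower in the KO mean, a difference of -3.01 with an SD of 3.25, which is larger than the difference. KO 4 was at the floor though its probe was called above background, and WT 2 lay below 3 of the KO cells. Without KO 4 the difference was -1.18, no longer 5-fold. Without WT 1 it was -2.39, without WT 2 -4.11, without KO 1 -3.71 and without KO 2 -4.21.

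*Eif2b5*, the catalytic epsilon subunit, was 7.40, 5.64, 5.64 and 7.53 in WT 1 to 4 and 8.19, 11.56, 5.64 and 10.20 in KO 1 to 4. KO 1, KO 2 and KO 4 lay above every WT cell and KO 3 was at the floor. The difference was 2.34, or 5.07-fold, with an SD of 1.97. It lay just past 5-fold (2.32 on the log2 scale) and fell short of it under each other scaling, with a floor of 200, and without WT 2, WT 3, KO 2 or KO 4 (2.04, 2.04, 1.46 and 1.91). Without KO 3 it was 3.43. *Eif2b1*, *Eif2b3* and *Eif2b4* had differences of -0.93, 1.67 and 0.84, each with at least 3 cells of the 8 at the floor.

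The 4 kinases of eIF2 alpha, which answer to haem shortage (*Eif2ak1*), double-stranded RNA (*Eif2ak2*), unfolded protein in the endoplasmic reticulum (*Eif2ak3*) and amino acid shortage (*Eif2ak4*), were almost wholly undetected. *Eif2ak1* and *Eif2ak2* were at the floor in all 8 cells. *Eif2ak3* was above the floor only in KO 1 (8.34) and *Eif2ak4* only in WT 4 (7.62). No difference between genotypes was detectable in them at this depth.

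The 14 genes of eIF3, the scaffold that binds the small ribosomal subunit, had 9 members well above background in all 8 cells (64.3%). Their differences ran from -3.0 to 2.25, with 8 below and 6 above 0 and a median of -0.44. *Eif3b*, a core subunit, was 10.98, 12.18, 11.79 and 11.82 in WT 1 to 4 and 11.15, 5.64, 12.33 and 5.64 in KO 1 to 4. Its WT cells lay within 1.2 log2 units, while KO 2 and KO 4 were at the floor and KO 1 and KO 3 at the WT level. The KO mean was 8.0-fold lower, a difference of -3.0 with an SD of 2.54. Without KO 2 or KO 4 it was -1.98 in either case, under 5-fold, and without KO 1 and KO 3 it was -3.82 and -4.21. With a floor of 200 it was -2.0.

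*Eif3g*, a subunit that binds RNA, was 16.83, 13.77, 16.59 and 15.52 in WT 1 to 4 and 9.19, 16.48, 15.04 and 12.52 in KO 1 to 4. The difference was -2.37, or 5.17-fold lower in KO, with an SD of 2.46. KO 1 and KO 4 were below every WT cell, KO 1 by the wider margin, and KO 2 lay above 2 of them. Without KO 1 the difference was -1.0, and it was also under 5-fold without WT 1 (-1.99), WT 3 (-2.07) or KO 4 (-2.11). Without WT 2 and without KO 2 it was -3.0 and -3.43.

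*Eif3k*, a small peripheral subunit, was the gene whose genotypes did not overlap. It was 14.90, 13.97, 13.26 and 13.81 in WT 1 to 4 and 14.97, 15.66, 15.72 and 15.12 in KO 1 to 4. The highest WT cell and the lowest KO cell lay side by side, and the KO mean was 2.61-fold higher, a difference of 1.38 with an SD of 0.55. The probe from base 717 gave 14.55, 13.87, 13.17 and 13.75 in WT cells and 14.92, 15.59, 15.74 and 15.29 in KO cells, also without overlap, with an r of 0.99 to the first. The third probe, from base 177 and well above background in all 8 cells, gave 10.83 to 12.32 in WT and 10.29 to 13.06 in KO cells, and its difference was 0.19 with an SD of 1.06. The genotypes overlapped when arrays were scaled to the 75th percentile, to a percentile of all probes or by quantiles, and with the mean of the probes. The difference was 0.77 with quantile normalization.

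*Eif3c* showed how far probes of a gene can part in single cells. By its probe from base 2821 it was 5.64, 12.84, 12.47 and 13.15 in WT 1 to 4 and 14.49, 8.62, 14.38 and 14.32 in KO 1 to 4, a difference of 1.93 with an SD of 3.26. WT 1 and KO 2 were low and the other cells high, and the difference was 0.14 without WT 1 and 3.37, past 5-fold, without KO 2. With the mean of both probes it was also 0.14. The probe from base 336 was above the floor in 1 cell, WT 1, at 12.26, the very cell in which the other probe was at the floor. *Eif3d*, *Eif3f* and *Eif3j2*, with differences of 2.25, 2.09 and 2.12, lay just under 5-fold. *Eif3h*, *Eif3l* and *Eif3m*, like *Eif3d*, *Eif3g* and *Eif3k*, were above the floor in all 8 cells, with differences of 0.79, -1.17 and -1.20. The probe of *Eif3m* is one of 3 used that the array annotation places on another chromosome than the gene, with those of *Eef1g* and *Eif4a1*.

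**Figure D3:**
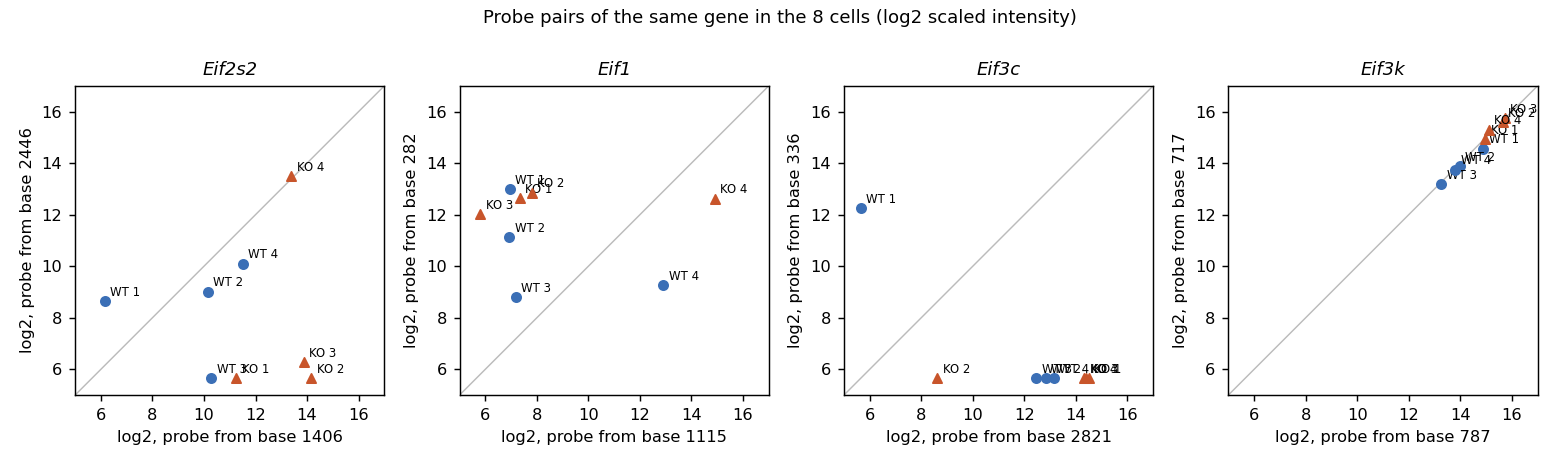
Log2 scaled intensity by probe pairs of *Eif2s2*, *Eif1*, *Eif3c* and *Eif3k* in the 8 cells (circles WT, triangles KO), each axis naming the base of the transcript at which the probe starts and the grey line marking equal values. The *Eif3k* pair lies on the line with KO cells at the upper end, while the *Eif2s2* and *Eif1* pairs, with r of -0.03 and -0.12, and the *Eif3c* pair do not.

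Over all members, 12 pairs of probes of a gene, from 8 genes, were well above background in all 8 cells. Of these pairs, 7 had an r over 0.9 across the cells, among them *Eef1a1* (0.99), *Eif3h* (0.98) and *Eif6* (0.999). The *Eef1a1* probes, from bases 1555 and 1605, overlap, and the first is placed on chromosome 15 and not 9. Pairs of *Eef1g*, *Eif1* and *Eif3m* also hold a probe placed on another chromosome. The count of pairs leaves out those with a probe not detected in every cell. Among those left out, further probes of *Eif2s1*, *Eif2s3x*, *Eif4e*, *Eif4e2* and *Eif6* were at the floor in all 8 cells, unlike the probe used. The study's methods name a primer with a run of T for the PCR of the cDNA. How much of each transcript was kept is not stated. Whether the distance of a probe from the transcript's end moves with these values was not tested.

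In the cap complex, *Eif4e*, the cap-binding protein, was 7.88, 9.25, 12.41 and 7.34 in WT 1 to 4 and 10.87, 10.75, 6.35 and 11.97 in KO 1 to 4. WT 3 and KO 3 each lay apart from the rest of their genotype, in opposite directions, and the difference was 0.77 with an SD of 2.38. *Eif4g1*, the main scaffold, was 10.14, 11.53, 10.70 and 12.55 in WT cells and 11.62, 13.29, 12.27 and 11.34 in KO cells, a difference of 0.90 with an SD of 0.96. *Eif4g2*, a scaffold that does not bind eIF4E, was at the floor in WT 1 and otherwise 9.59, 11.06 and 11.36 in WT cells, and was 9.58, 11.81, 11.37 and 10.98 in KO cells. Its difference of 1.52 was 0.27 without WT 1. For none of these 3 genes did the genotypes part.

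*Eif4g3*, a paralog of *Eif4g1*, was 11.63, 11.91, 12.14 and 5.64 in WT 1 to 4 and 5.64, 5.64, 5.64 and 12.12 in KO 1 to 4. It was either near 12 or at the floor, with 3 WT cells and 1 KO cell in the high state. The KO mean was 8.41-fold lower, a difference of -3.07 with an SD of 3.19. Leaving out WT 4 or KO 4, the cell of each genotype that stood apart, gave -4.63 and -4.69, and leaving out WT 3 gave the least, -2.47. With a floor of 200 and with the mean of both probes the difference was -2.07 and -1.54, since the other probe was at the floor in every cell.

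*Eif4a1* and *Eif4a2* encode the helicase that unwinds the 5′ end of mRNAs. *Eif4a1* was 15.60, 13.60, 15.49 and 15.38 in WT 1 to 4 and 15.93, 15.80, 14.26 and 14.43 in KO 1 to 4, a difference of 0.08 with an SD of 0.92. *Eif4a2* was 11.48, 9.45, 11.61 and 10.92 in WT cells and 10.48, 5.64, 9.78 and 10.96 in KO cells, a difference of -1.65 with an SD of 1.86, and of -0.46 without KO 2, the one cell at the floor. *Eif4b* and *Eif4h*, which assist the helicase, differed by -1.93 and -1.35. *Eif4b* was not detected in any KO cell by the probe used, while another of its probes was detected in 3 KO cells and differed by -0.57.

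The 3 genes of 4E-BP did not share a direction. *Eif4ebp3* was 5.64, 9.39, 12.03 and 10.36 in WT 1 to 4, and in none of the KO cells was it well above background or over the floor. The KO mean was 13.1-fold lower with this floor, a difference of -3.71 with an SD of 1.91. This difference was the lowest of the 64 genes, and its size depends on the floor. WT 1 shared the floor with the KO cells, so the genotypes met there. Without WT 1 the difference was -4.95 and without WT 3 it was -2.82, and with a floor of 200 it was -2.21, under 5-fold.

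*Eif4ebp1* was 5.64, 12.11, 9.88 and 13.22 in WT 1 to 4 and 12.64, 12.97, 13.86 and 10.48 in KO 1 to 4. Its difference of 2.27 with an SD of 2.58 lay just under 5-fold and was 0.75 without WT 1, the cell at the floor. *Eif4ebp2* was over the floor in KO 3 alone, at 11.57. In the 7 cells other than WT 1, at least 1 of the 3 genes was thus over the floor, and *Eif4ebp1* was over it in all of those.

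**Figure D4:**
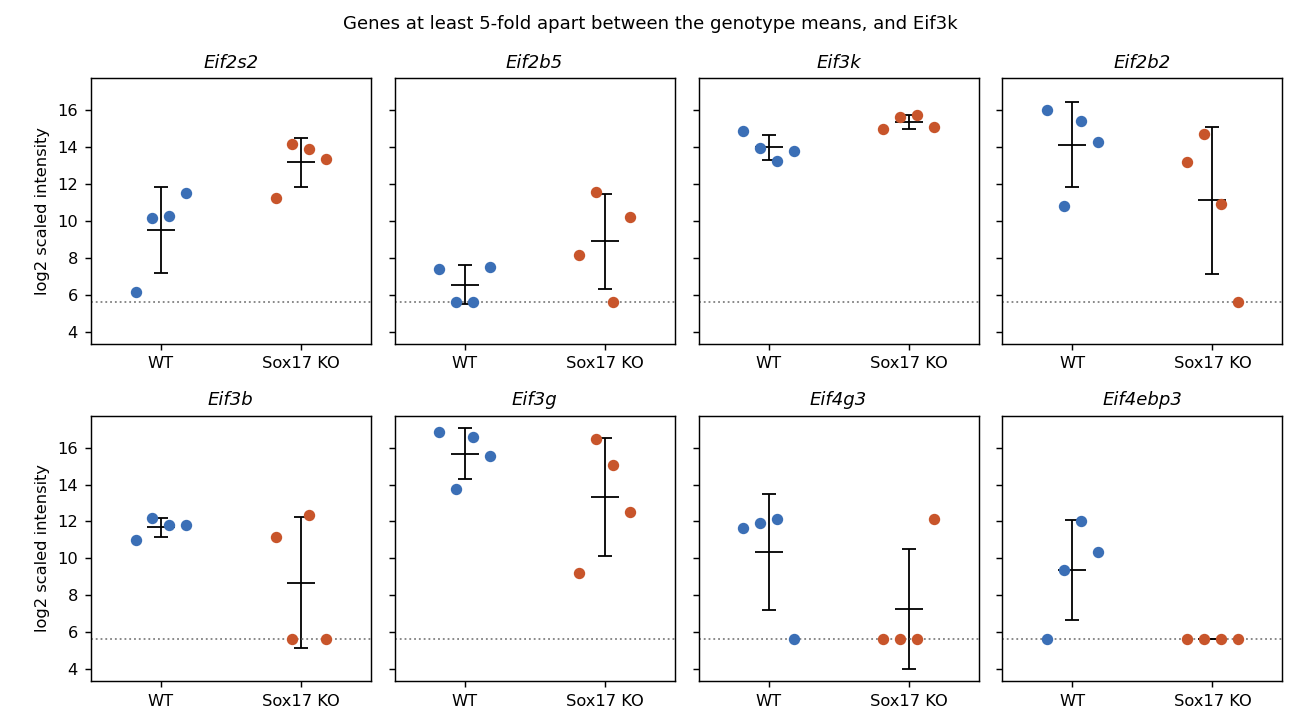
Log2 scaled intensity in each cell (points, WT blue and KO orange) of the 7 genes at least 5-fold apart and of *Eif3k*, with the mean and the SD of each genotype and the floor as a dotted line. The genotypes of *Eif3k* do not overlap though its difference is 1.38, while *Eif3b*, *Eif4g3* and *Eif4ebp3* differ through cells at the floor.

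*Eif5a* and *Eif5a2* encode the factor that relieves stalled ribosomes and carries hypusine. *Eif5a* was 13.52, 12.76, 13.63 and 11.86 in WT 1 to 4 and 13.76, 13.43, 13.53 and 13.82 in KO 1 to 4. The KO cells lay within a narrow band that held WT 1 and WT 3, and the difference was 0.69 with an SD of 0.59. *Eif5a2* was 9.53, 7.79, 8.75 and 9.95 in WT cells and 9.06, 9.42, 8.51 and 10.81 in KO cells, a difference of 0.45 with an SD of 0.97. *Eif5* and *Eif5b*, for start codon recognition and subunit joining, differed by -1.31 with an SD of 2.67 and by 0.00, *Eif5b* being at the floor in all cells.

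*Eif6*, which keeps the large ribosomal subunit from joining too early, had the highest SD between cells of the 26 genes well above background in all 8. It was 15.66, 11.97, 5.64 and 11.72 in WT 1 to 4 and 9.03, 6.77, 14.88 and 12.28 in KO 1 to 4, with an SD of 3.87 and a difference of -0.51. The cells of each genotype were spread over nearly the same range. A second probe of *Eif6* gave the same order, with an r of 0.999.

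Among the elongation factors, *Eef1a1*, *Eef1b2*, *Eef1g* and *Eef2* were above the floor in all 8 cells with an SD under 1. *Eef1d*, also above the floor in all 8, was spread more widely (2.66). *Eef1e1*, placed here by its symbol alone, had an SD of 2.55 with 2 WT and 3 KO cells at the floor. *Eef1a1*, the carrier of aminoacyl-tRNA, was 16.39, 15.54, 16.71 and 16.17 in WT 1 to 4 and 16.44, 16.79, 15.71 and 16.88 in KO 1 to 4. Its SD of 0.51 was the lowest of all members well above background in all cells, and the difference was 0.25. Its paralog *Eef1a2*, known from muscle and neurons, was at the floor in all 8 cells.

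*Eef1b2*, an exchange factor subunit, was 18.32, 15.77, 17.03 and 15.99 in WT cells and 17.49, 16.73, 16.56 and 17.21 in KO cells, a difference of 0.22 with an SD of 0.88. *Eef1g*, its partner, was 16.46, 14.73, 16.34 and 15.58 in WT cells and 15.50, 16.23, 15.90 and 15.84 in KO cells, a difference of 0.09 with an SD of 0.60. In both genes the widest values belonged to WT cells and the KO cells lay between them. *Eef1d*, the other exchange subunit, was less even, at 14.20, 12.25, 7.84 and 13.99 in WT cells and 14.49, 10.94, 9.44 and 13.60 in KO cells, with an SD of 2.66 and a difference of 0.05.

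*Eef2*, the translocase, was 14.16, 13.62, 15.30 and 14.30 in WT 1 to 4 and 14.11, 15.85, 13.73 and 15.23 in KO 1 to 4. The difference was 0.39 with an SD of 0.85, and the genotypes overlapped over most of their range. *Eef2k*, the kinase that inhibits eEF2, was over the floor only in WT 4, at 6.99. The differences of *Eef1a1*, *Eef1b2*, *Eef1d*, *Eef1g*, *Eef2* and *Eif4a1*, all small and above 0 here, were below 0 with quantile normalization (-0.44, -0.33, -0.36, -0.54, -0.21 and -0.54), so no direction is given for them.

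Spread between cells was compared over the genes above the floor in all 8 cells, since values at the floor hide it. These were 20 *Eif* and *Eef* genes and 3448 of all genes. The median SD was 1.2 for the former and 0.82 for the latter, whose quartiles were 0.60 and 1.29. Over the genes well above background in all 8 cells, some of them at the floor, it was 1.94 for 26 *Eif* and *Eef* genes and 0.74 for all 6236. The 20 genes fell on both sides. *Eef1a1* had a lower SD than most genes (13.9% at or below it), as did *Eif3k* (17.9%), *Eif5a* (23.1%) and *Eef1g* (24.5%), while *Eif1* (99.0%), *Eif1ax* (95.7%) and *Eef1d* (93.7%) were among the most spread. Over the 8 cells, whose arrays differ in depth, the 6 pairs of *Eef1a1*, *Eef1b2*, *Eef1g* and *Eef2* had an r of 0.18 (*Eef1b2* and *Eef2*) to 0.87 (*Eef1a1* and *Eef2*), and the median r was 0.06 over the 190 pairs of the 20 genes and 0.20 over the pairs of all 3448. A list of 8 members was taken as mRNAs with a 5′ terminal oligopyrimidine tract, a class whose translation follows mTOR. It held *Eef1a1*, *Eef1b2*, *Eef1d*, *Eef1g*, *Eef2*, *Eif3e*, *Eif3f* and *Eif3h*. Of these, 7 were well above background in all 8 cells (87.5%), against 19 of the 56 others (33.9%). The list was not checked for completeness, some of the others may belong to the class, and both shares depend on it.

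**Figure D5:**
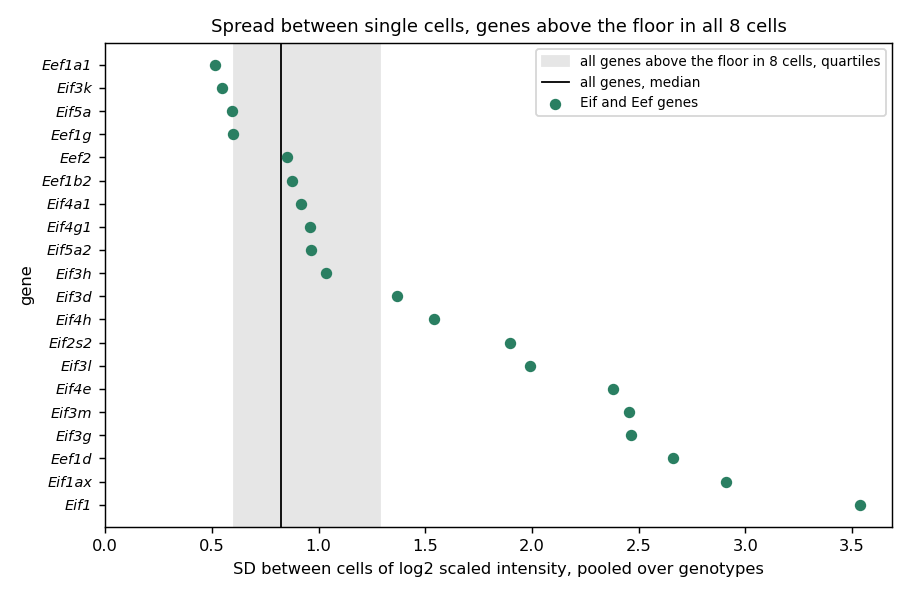
SD between cells of log2 scaled intensity, pooled within genotypes, for the 20 *Eif* and *Eef* genes above the floor in all 8 cells (points), with the median (line, 0.82) and quartiles (grey band, 0.60 to 1.29) of the 3448 genes above the floor in all 8. The genes run from *Eef1a1* at 0.51 to *Eif1* at 3.54, with 4 at or under the lower quartile and 10 beyond the upper one.

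Of 30 other genes of translation, 29 had a probe (*Gfm1* is named only). Of these, 2 were at least 5-fold higher in KO cells (6.90%), beside 1.84% of all genes and 3.23% of those detected in 1 cell or more. At least 5-fold lower were 6 (20.7%), beside 1.86% and 3.27%, and the median difference was -0.66. Leaving out WT 1, WT 3 or KO 3 left 1 higher and leaving out KO 4 left 0, with 4 to 7 lower on leaving out any 1 cell. With a floor of 200 there were 0 higher and 1 lower. Shares over all genes are not given for these other settings. The higher ones were *Denr* (2.62, SD 2.0) and *Mcts1* (2.36, SD 3.48), whose products work as a pair in reinitiation and ribosome recycling. *Denr* was 5.64, 6.95, 5.64 and 7.69 in WT 1 to 4 and 5.64, 8.46, 11.12 and 11.21 in KO 1 to 4, and *Mcts1* was over the floor in WT 2, KO 3 and KO 4. KO 3 and KO 4 were thus the highest cells for both.

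The lower ones were led by *Atf4*, the transcription factor made when eIF2 alpha is phosphorylated, which was well above background in all 8 cells. It was 12.05, 12.84, 14.89 and 13.05 in WT 1 to 4 and 10.45, 8.26, 13.92 and 7.54 in KO 1 to 4. KO 3 lay among the WT cells and the other KO cells below all of them, and the difference was -3.17 with an SD of 2.2. It was -4.46 without KO 3 and -2.33 without KO 4. *Mknk2*, a kinase of eIF4E, had a difference of -2.98 with an SD of 3.13. *Dhps*, the first enzyme of hypusine formation on eIF5A, had one of -2.67 with an SD of 2.14. *Etf1*, the release factor, and *Dhx29*, a helicase of initiation, had -2.52 and -2.37 with SDs of 2.52 and 1.94. *Mtor* was over the floor in 3 WT cells and in no KO cell, a difference of -2.38 with an SD of 1.37. *Pabpc1*, the poly(A)-binding protein, was 14.72, 13.81, 16.11 and 15.30 in WT cells and 15.62, 15.66, 15.68 and 15.50 in KO cells, a difference of 0.63 with an SD of 0.69.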

How the data were processed

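Single-cell cDNA had been amplified, transcribed and labelled with Cy3, 1 cell per array. The intensity values deposited by the authors are the background-subtracted, detrended signals of the scanner software (Agilent Feature Extraction 12.0.2.2, design 028005), not normalized between arrays, and the other flags in the deposited files mark outlier spots, saturation and signal over background. Control and outlier spots were left out, spots of a probe averaged and 55295 of 55681 probes usable on all arrays kept, with no probe saturated. A probe was well above background where over 50% of its spots were. Arrays were scaled to an equal 50th percentile over the 7570 probes detected on every array, a floor of 50 was set, and values were put on the log2 scale (Python 3.11.15, numpy 2.4.6, pandas 2.3.3). The number of arrays limits the precision.

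The members are named by array symbols, and RefSeq (GRCm38.p6) was used for names only. Genes with values per cell were those at least 5-fold apart, those without overlap between genotypes, fixed sets (eIF2 and eEF1 subunits, *Eef2*, *Eef2k*, cap complex, 4E-BPs, eIF2 kinases, *Eif5a*, *Eif5a2*, *Eif6*), and the 3 lowest and 3 highest SDs among members well above background in all 8 cells. The spread over genes above the floor was compared after the data were seen. Members and lists were chosen with earlier results of these data known. Alternatives were other scalings, floors, background correction (limma 3.58.1 in R 4.3.3), probe means, a detection filter and leaving out each cell. The script was tested on simulated data.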

Additional observations from a re-analysis of the deposited data

Results flagged for a closer look

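Within the 4 cells of a genotype, the gap of the highest or lowest cell to its nearest neighbour was divided by the range of the group, for the 34 genes given cell by cell, where the values of the group were not all equal. Some of these genes were named for their spread or their difference, and the other members were not looked at in this way. Of 55 such groups, 11 passed Dixon's 95% limit for 4 samples. Chance flags about 1 in 20 groups, a rate that does not hold for genes named for their spread or with values at the floor. In 5 of the 11 the other 3 cells were all at the floor, which gives a ratio of 1 by construction. These were *Eef2k* in WT 4, *Eif2ak4* in WT 4, *Eif2ak3* in KO 1, *Eif4ebp2* in KO 3 and *Eif4g3* in KO 4. Cells standing above the rest of their genotype were WT 4 for *Eif1* (0.956) and KO 3 for *Eif2s3x* (0.996), the latter with 2 of the others at the floor. Cells standing below were WT 1 (0.909) and KO 2 (0.970) for *Eif3c*, WT 2 for *Eif4a1* (0.893) and WT 4 for *Eif4g3* (0.921). WT 4 was named in 4 of the 11.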

How the results depend on the processing

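The number of genes at least 5-fold higher in KO cells, 2 here, was 1 with the 75th percentile, a floor set before scaling, a percentile of all probes, quantile normalization, normexp background correction, a floor of 200, the mean of all probes or only genes well above background in all 8 cells, 6 with a floor of 10 and 7 with no floor. Leaving out a cell gave 2 to 7. The number at least 5-fold lower, 5 here, was 2 with a floor of 200 or only genes above background in all 8 cells and 10 with no floor, and 3 to 9 on leaving out a cell. The number of genes without overlap, 1 here, was 0 with the 75th percentile, a floor before scaling, a percentile of all probes, quantile normalization or the mean of all probes, 2 with normexp, and 1 to 3 on leaving out a cell. Among the other genes of translation, a list put through these settings after the data were seen, those at least 5-fold higher, 2 here, were 0 with the 75th percentile, a percentile of all probes, a floor of 200 or only genes above background in all 8 cells, 1 with a floor before scaling, quantile normalization or the mean of all probes, and 0 to 3 on leaving out a cell. Those at least 5-fold lower, 6 here, were 1 with a floor of 200, 2 with only genes above background in all 8 cells, and 4 to 7 on leaving out a cell. Fewer tested genes, floors and cells act on these counts by construction, and the cause of the shifts between scalings was not tested. The median difference stayed between -0.16 and 0.17 under the alternatives, while that of all genes was 0.37 with no floor and 0.22 with normexp. The detection counts per cell moved by less than 1.5 times with the scanner's call for a positive and significant signal, and no called value changed sign. No paired analysis was possible because no result comes from a test. WT and KO cells of the same number share a slide row but no stated embryo, and a mean over such pairs equals the difference given by construction. Probes near background and a floor reached by 15 to 36 of the 64 genes per cell limit what can be seen of dim genes.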
